A study of Mus musculus with 16 samples.

Results

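The cytosolic ribosomal protein genes encode the proteins that, with ribosomal RNA, build the small and large subunits of the ribosome in the cytoplasm. Members were chosen by gene symbol: Rpl or Rps followed by a number and at most a short suffix, together with Rpsa, Rplp0, Rplp1 and Rplp2, leaving out pseudogene entries, and a gene needed 100 or more counts summed over the 16 libraries. Of 37583 genes in the count tables, 84 had such a symbol and 81 passed, 32 of the small and 49 of the large subunit. Left out for low counts were Rpl10l with 0 counts, Rpl39l with 10 and Rps27 with 99, and the lowest sums that passed were those of Rps23 with 116, Rpl3l with 150 and Rps29 with 181.

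Polyadenylated RNA from snap-frozen frontal cortex and cerebellum was sequenced from 8 C57BL/6J mice, both regions of each mouse, so that 4 libraries stood in each of the 4 groups: wild-type cortex, A391T cortex, wild-type cerebellum and A391T cerebellum. A391T (A393T) is a missense change in Slc39a8, a metal ion transporter, and is given in the labels in both its human and its mouse numbering, without the number of mutant copies. Libraries carry the names of region and mouse: CTX447, CTX448, CTX479 and CTX480 for wild-type cortex and CTX445, CTX446, CTX461 and CTX462 for A391T cortex, with CBLM in place of CTX for the cerebellum of the same mice, and values per library are given in this order. The wild-type mice were male and 12 weeks old. For the A391T mice, neither age nor sex is stated in the sources used here.

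Each ribosome holds a single copy of nearly every ribosomal protein, apart from the stalk proteins, so the genes are known for being made in step. Their mRNAs typically begin with a C followed by an uninterrupted stretch of pyrimidines, the terminal oligopyrimidine or TOP motif, through which the mTOR pathway sets their translation. In the mouse genome nearly every one of these genes also has processed copies, pseudogenes inserted from its spliced mRNA, and in neurons ribosomal protein mRNAs are known to be present in axons and dendrites as well as in the cell body.

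The processed copies bear on every value given here, because reads that aligned to more than 1 place were not counted to a gene. Cut into windows of 50 bases, the length of the reads, the mRNA of a member had a median of 35.5% of windows found nowhere else in the genome, from 1.92% for Rps12 to 100% for Rpl3l (80 members with an annotated mRNA), and 26 of the 80 reached 50%. The nuclear genes for the mitochondrial ribosome, a set of like size, had a median of 100%, and 70 of 75 reached 50%. Short pieces from the middle of the coding sequence show what this means for the 2 members with the highest levels and the 2 with the largest fall between regions. Each is 30 bases of coding exon, 5′ to 3′ on the mRNA, all in lower case:
Rplp1: atgtcaacattgggagcctcatctgcaatg
Rpl8: aagctggcccgagcctccgggaactacgcc
Rps6: attcctggactgacagacactactgtgcct
Rps2: ttgccactgccatccgaggggccatcatct
Exact copies of the Rpl8 piece, coding bases 373 to 402 of the gene at chr15:76734501-76736748 (plus strand) in NCBIM37 (mm9), were found in 1 place in the genome. The Rplp1 piece, bases 158 to 187 of the gene at chr9:61761091-61762345 (minus strand), was found in 4 places, the Rps6 piece, bases 361 to 390 of the gene at chr4:86500564-86503316 (minus strand), in 4, and the Rps2 piece, bases 440 to 469 of the gene at chr17:24855061-24858874 (plus strand), in 21. The pieces were taken from coding sequence, and what lies at the places found was not examined. Whether a read over such a piece is counted depends on the bases to either side of it.

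The starts of the genes are shown because the TOP motif lies there. Of the 81 members, 59 had an entry in the table of RefSeq starts (GRCm38.p6), with 71 starts. An uninterrupted run of at least 8 pyrimidines (C or T, sense strand only) beginning within 10 bases of the annotated start was present for 20 of the 59 (33.9%), and for 10.7% of all 27025 genes in that table. Annotated starts can be a few bases off, so a shorter run says little. The following 30 bases begin 10 bases before the annotated start, with the run in capitals, for the 4 members with a run that fell most and the 2 that rose most from cortex to cerebellum in wild-type mice:
Rps6: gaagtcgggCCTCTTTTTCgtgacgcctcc
Rpl39: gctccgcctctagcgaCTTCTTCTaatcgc
Rpl15: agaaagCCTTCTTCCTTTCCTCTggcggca
Rps26: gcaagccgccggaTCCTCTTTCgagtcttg
Rps15a: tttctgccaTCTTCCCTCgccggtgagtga
Rpl18: ctcgcaggccgCTCTTTCCCCgcccactcc
They lie at chr4:86857348-86857377 on the minus strand for Rps6, chrX:37085203-37085232 on the minus strand for Rpl39, chr14:18270967-18270996 on the minus strand for Rpl15, chr10:128626487-128626516 on the minus strand for Rps26, chr7:118116128-118116157 on the minus strand for Rps15a and chr7:45718061-45718090 on the plus strand for Rpl18. The longest run of these, in Rpl15, had 17 pyrimidines. Members with and without such a run had about the same median change between regions in wild-type mice, on the log2 scale -0.35 for 20 and -0.35 for 37 members tested.

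Levels per length, in TPM (reads per base of gene length, scaled to the same sum in every library, from the counts and the lengths of the deposited table), ran from 1866 for Rplp1 to 0.868 for Rpl3l, as means over the 16 libraries. The 5 highest were Rplp1, Rpl8, Rps15, Rpl4 and Rps21, which together held between 42.8 and 52.1% of the summed TPM of the members in each library. The lowest 5 were Rpl3l, Rps23, Rps16, Rps29 and Rpl23a, with means of 0.868 to 2.72 TPM. Proteins of the same ribosome thus differed widely in counted mRNA, and the levels moved with the share of unique windows. Members with at least 50% unique windows had a median of 95.5 TPM and the others 34.5 TPM (Spearman rho 0.456 across 80 members, which share the same 16 libraries). Gene length in the deposited table was also more than 2 times the mRNA used here for 31 members, which lowers their TPM, so an order between members is an order of counted reads per annotated length only. In the plot of levels the ranges of neighbouring members overlap over most of the order.

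**Figure D1:**
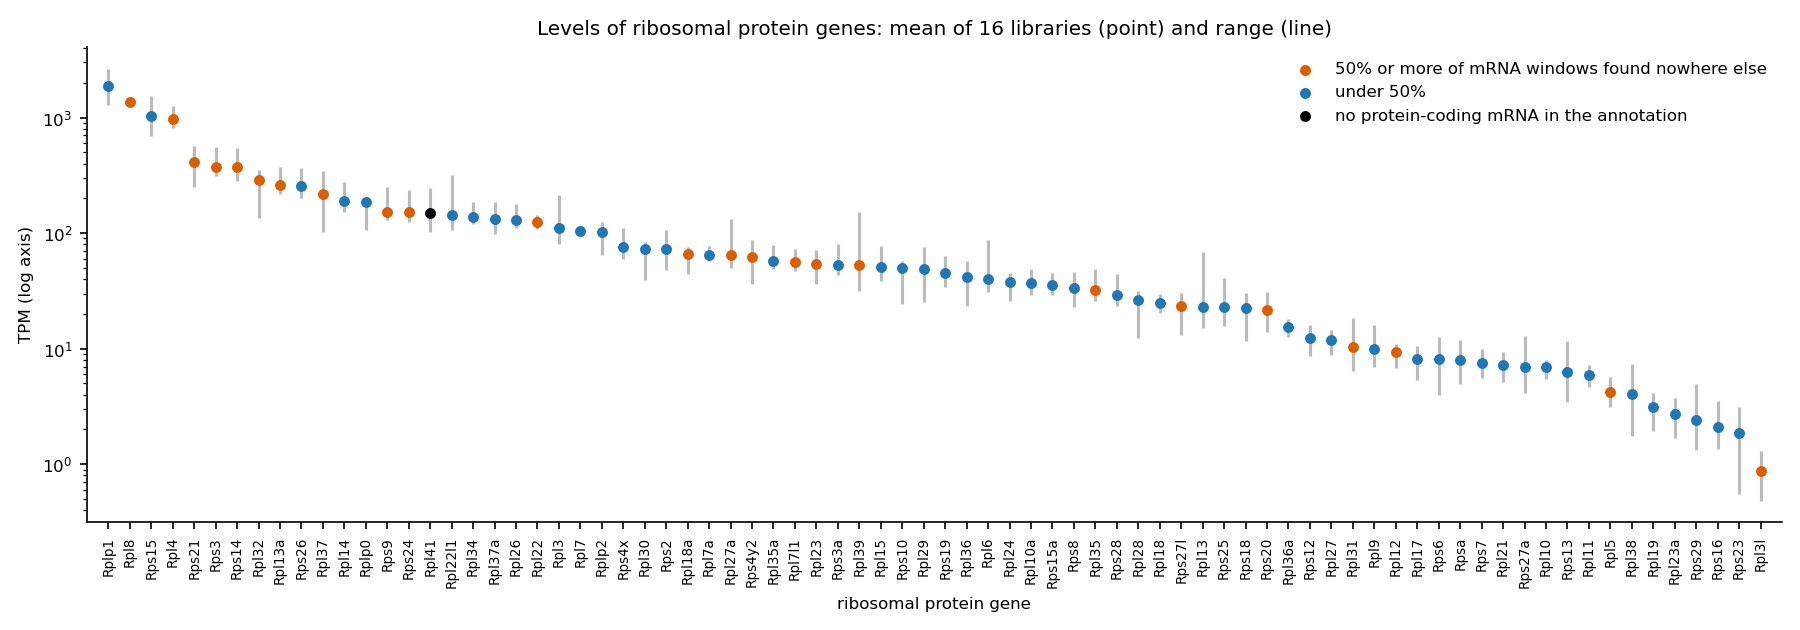
Level of 78 ribosomal protein genes, in TPM on a log axis, as the mean of 16 libraries (point) with the lowest and highest library (line), coloured by the share of 50-base windows of the mRNA found nowhere else in the genome. Rplp1, Rpl8, Rps15 and Rpl4 stand above the rest, and most of the lowest genes have under 50% of unique windows.

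The libraries held 20813432 to 30497206 counts on genes, of which the members took 0.328 to 0.513%. Reads without a unique alignment came to 8.41 to 12.1% of all reads in the count tables. Samples were named by their labels, under which the count files stand. In the deposited RPKM table the columns named CTX447 and CTX448 held the values of CTX461 and CTX462 and the reverse, and so for CBLM, so that 8 of 16 names differed and with them the genotype, and fits with the names of that table were run as an alternative. The regions matched their labels: 6 entries for cortical neurons were all lower and 8 for cerebellar neurons all higher in the cerebellum of both genotypes, with summed levels of 437 to 489 TPM in cortex and 30 to 40 TPM in cerebellum for the first and 114 to 138 and 4035 to 4552 TPM for the second, and 1 further entry of the cortical list was at 0 in every library. Microglia genes (5 of 5 lower in cerebellum in both genotypes) and astrocyte genes (3 of 5 higher in wild type and 4 of 5 in A391T) moved with region as well, and choroid plexus genes were present in the cerebellum libraries at 42 to 8083 TPM in sum, with 7 of 7 higher in both genotypes. Striatal genes were lower in cerebellum (5 of 5 in wild type and 4 of 5 in A391T), with 207 to 706 TPM in sum in cortex and 249.5 to 309.9 TPM in cerebellum, and so were 8 of 12 immediate early genes in both genotypes, with 1047 to 2240.5 and 321 to 774 TPM in sum. The part of these in the differences below was not tested. In bulk tissue, fewer cells of a type and less RNA per cell cannot be told apart.

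A pair of libraries stood apart in the members, and the counts and medians between regions are given with and without them. Library CTX480 (wild-type cortex) had a median member 0.35 above the other 3 of its group on the log2 scale, with 67 of 80 members above them, against -0.02 for the median of all 16589 genes. It also had the highest share of reads without a unique alignment, 12.1%. Library CBLM445 (A391T cerebellum) had a median member 0.24 above the other 3 on the log2 scale (median of all genes: 0). Of its 80 members, 53 were above the other 3. The 14 other libraries had median members of -0.20 to 0.11. Library CBLM445 also differed gene by gene. The standard deviation of its members around the other 3 was 0.732, against 0.124 to 0.302 in the 14 other libraries. Over all genes it was 0.523, against 0.230 to 0.372, so the departure was not particular to the members. In counts scaled by TMM, the trimmed mean of M values, 13 members were at least 2-fold above and 3 at least 2-fold below the other 3. This was 20% of 80, against 5.78% of all genes in that library and 0.663 to 2.2% in the 14 others. Library CBLM445 had the lowest share of reads without a unique alignment, 8.41%. Library CTX445, from the same mouse, had 0 members beyond 2-fold in either direction, and the part of the alignment shares in these patterns was not tested. The summed level of 5 blood genes was also highest in library CBLM445, at 593 TPM against 286 TPM in the lowest library, and its part was not tested.

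**Figure D2:**
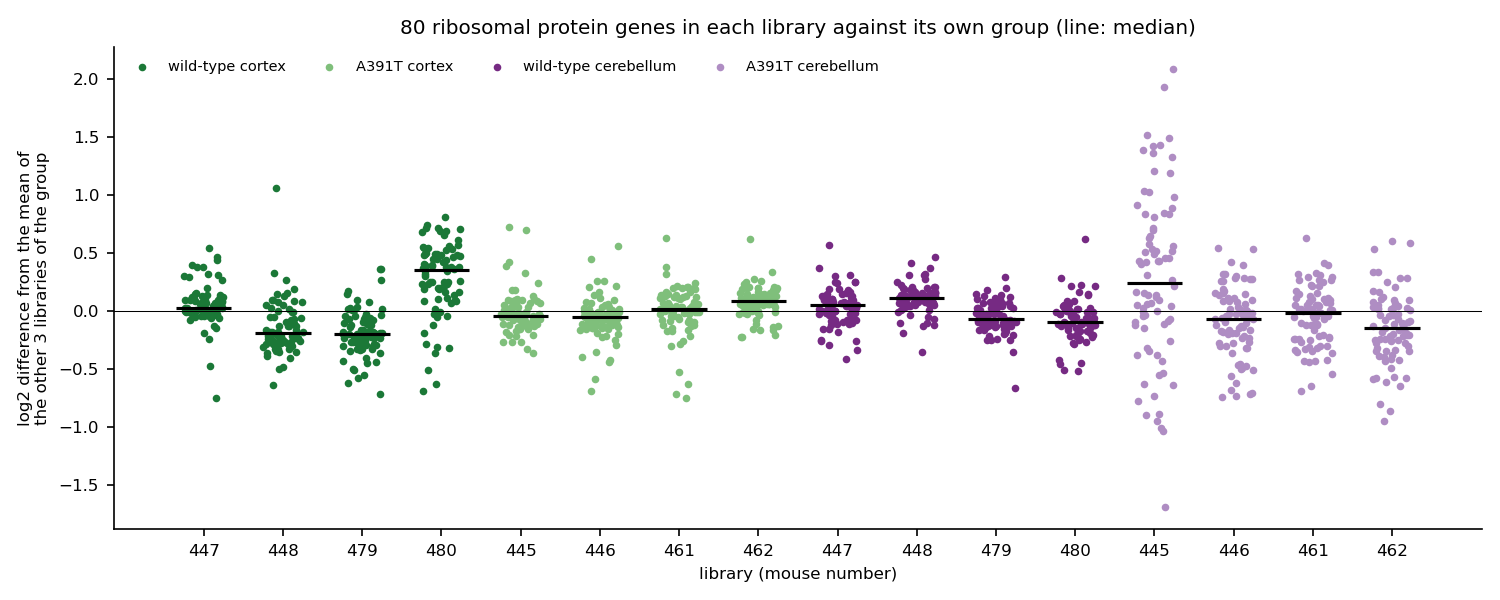
Log2 difference of each of 80 ribosomal protein genes in a library from the mean of the other 3 libraries of its group, after TMM scaling; each point is a gene and the line is the median. The points of CTX480 sit together around 0.35, and those of CBLM445 spread from -1.69 to 2.09.

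In library CBLM445 the members went in both directions. Rpl39 was at 153 TPM against 35.2 to 46.2 in the other 3, Rpl13 at 68.1 against 17.7 to 23.3 and Rpl6 at 87 against 32.1 to 35.3. Others at least 2-fold above, in TPM as in scaled counts, included Rpl3, Rpl22l1, Rpl27a, Rpl31, Rpl38, Rpl41 and Rps6, while Rps16 and Rps25 were so in scaled counts only. In log2 TPM 11 members were at least 2-fold above and 6 below (21.2%, against 4.49% of all genes), the latter with Rpl28, Rpl30 and Rps27l added. Members at least 2-fold below on both scales included Rpl32, at 135 against 296 to 316 TPM, and Rps10, at 24.2 against 54.6 to 56.7 TPM. The highest Rpl39 level elsewhere was 75.9 TPM.

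The first comparison asked how the 2 regions differ in wild-type mice. The summed level of the members was lower in cerebellum in every wild-type mouse. It was 12664, 11610.1, 11931 and 15075 TPM in wild-type cortex and 10499.8, 10628, 9924 and 10022 TPM in wild-type cerebellum. The regions did not overlap, and the cerebellum held 0.83, 0.915, 0.832 and 0.665 times the cortex level in the 4 mice, 0.810 ± 0.105 (SD, n = 4). In A391T mice the sums were 12318, 12428, 12359 and 13157 TPM in cortex and 10923, 10673, 10872 and 10327 TPM in cerebellum, again without overlap, with ratios of 0.887, 0.859, 0.880 and 0.785 (0.853 ± 0.0467, SD, n = 4). As a share of all counts on genes, the ratio was 0.846 ± 0.144 in wild type, below 1 in 4 of 4 mice, and 0.943 ± 0.122 in A391T, below 1 in 3 of 4, the exception being the mouse of CTX445 and CBLM445 with 1.11. Without the 5 members of highest TPM it was 0.878 ± 0.129 and 0.934 ± 0.0705 (with 1.02 in that mouse).

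**Figure D3:**
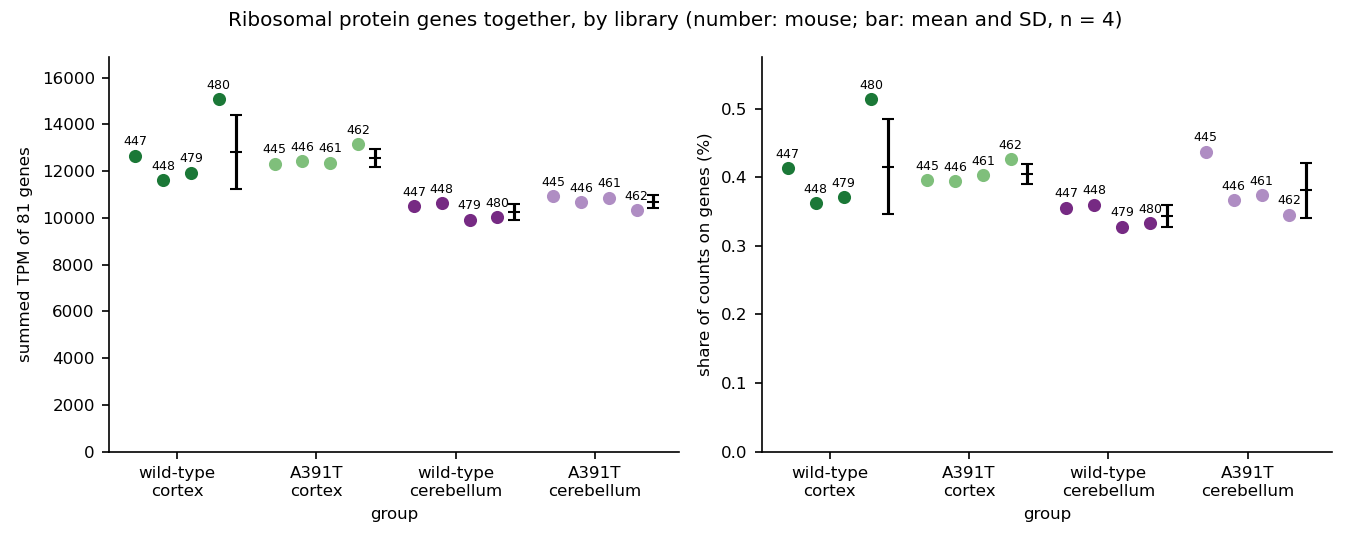
Summed TPM (left) and share of counts on genes in % (right) of the 81 ribosomal protein genes, by group; each point is a library labelled by its mouse, and the bar is the mean and SD of 4. In TPM all cortex libraries lie above all cerebellum libraries (11610.1 TPM is the lowest cortex and 10923 TPM the highest cerebellum value), and in share of counts they overlap.

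Fold changes were fitted to counts scaled by TMM, which differ from ratios of TPM: the median gene was 0.17 higher in cerebellum than in cortex in log2 TPM in wild type and 0.13 in A391T, and the median member -0.19 and -0.05. Gene by gene, 45 of 79 members tested were lower in wild-type cerebellum and 9 were higher (57% and 11.4%), while 25 did not pass, in edgeR's quasi-likelihood test at an adjusted p of 0.05. Of all 16040 genes tested, 33.1% were lower and 34.7% higher. The median log2 fold change was -0.33 for members and 0.02 for all genes. The changes were small: 2 members passed a 2-fold fall and 0 a 2-fold rise, against 14.2% and 10.5% of all genes. Both subunits took part, with 19 of 31 small-subunit members lower and 3 higher (median -0.33), and 26 of 48 large-subunit members lower and 6 higher (median -0.33). Members with at least 50% unique windows gave 17 lower and 3 higher of 25 (median -0.35), and the others 27 lower and 6 higher of 53 (median -0.32). In TPM, 24 members had every cerebellum library below every cortex library and 10 the reverse (30.4% and 12.7%, against 24.5% and 41.4% of all genes tested). Without library CTX480, 41 of 80 were lower and 11 higher, with a median of -0.21 (all genes: 34% and 35.4%). Scaling by library totals in place of TMM moved the median of all genes to 0.14, and then 25 members were lower and 10 higher (median -0.22, that is -0.36 relative to all genes). The members' 31.6% lower and 12.7% higher then stood against 27.5% and 42.3% of all genes.

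**Figure D4:**
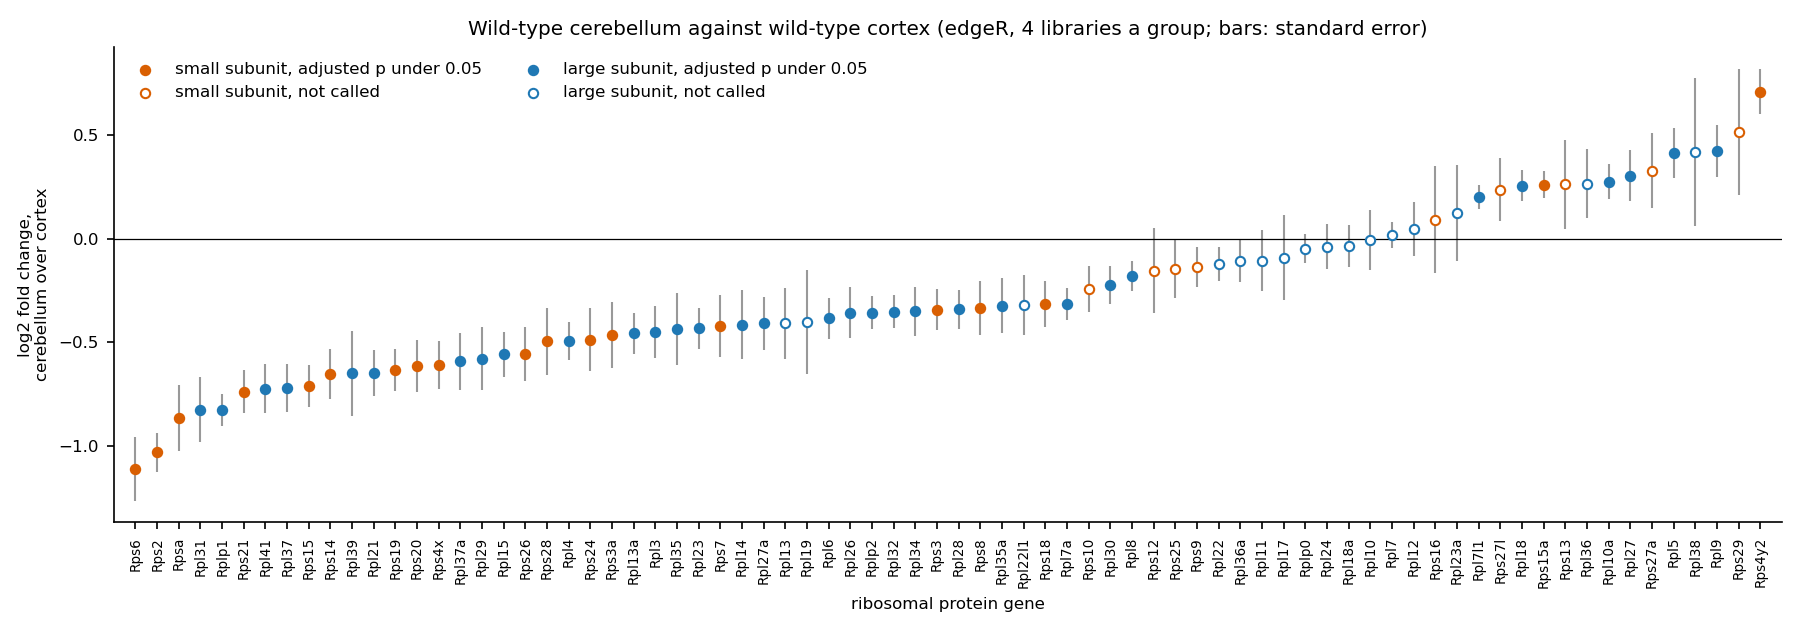
Log2 fold change of 76 ribosomal protein genes, wild-type cerebellum over wild-type cortex, with standard errors, in rising order; filled points passed an adjusted p of 0.05. The 43 filled points below 0 reach -1.11 (Rps6), and the 8 above 0 reach 0.71 (Rps4y2).

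Among the small-subunit proteins, the largest falls were those of Rps6 and Rps2. Rps6, the target of the S6 kinases, was at 12.3, 9.11, 9.79 and 9.99 TPM in wild-type cortex and at 5.93, 4.25, 5.66 and 5.34 TPM in wild-type cerebellum (log2 fold change -1.11 ± 0.15, adjusted p = 5.9e-05). All 4 cerebellum values lay below all 4 cortex values, though only 5.31% of the windows of its mRNA were unique. Rps2, which lies at the entry of the mRNA channel, was at 93.6, 84.1, 81.5 and 106 TPM in cortex and 48.6, 52.9, 48 and 48.8 TPM in cerebellum (log2 fold change -1.03 ± 0.10, adjusted p = 2.3e-06), also without overlap. Rpsa, a small-subunit protein also known as the laminin receptor, was at 9.45, 7.94, 8.01 and 11.8 TPM in cortex and 5.86, 5.99, 5.79 and 4.95 TPM in cerebellum (log2 fold change -0.87 ± 0.16, adjusted p = 0.00058). Rps15, Rps21 and Rps14 had higher levels and smaller falls. Rps15 was at 1251, 1124, 1149.7 and 1531 TPM in cortex and 892, 881, 815 and 847 TPM in cerebellum (log2 fold change -0.71 ± 0.10, adjusted p = 7.5e-05), Rps21 went from 485 ± 65.4 TPM to 323 ± 23.5 TPM (SD, n = 4; -0.74, adjusted p = 7.3e-05) and Rps14 from 428 ± 80.3 TPM to 303 ± 14.1 TPM (SD, n = 4; -0.65, adjusted p = 0.00056). For these 3 genes the regions did not overlap.

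The stalk of the large subunit, through which the elongation factors are recruited, is made of Rplp0 at its base and pairs of Rplp1 and Rplp2. Rplp1 was at 2260.4, 2176, 2339 and 2651 TPM in wild-type cortex and 1536, 1521, 1377 and 1474 TPM in wild-type cerebellum (log2 fold change -0.83 ± 0.08, adjusted p = 2.6e-06). Rplp2 was at 107, 102, 111 and 125 TPM in cortex and 103, 98.2, 92.2 and 92.3 TPM in cerebellum (log2 fold change -0.36 ± 0.08, adjusted p = 0.0021), and the regions overlapped in TPM. Rplp0 was at 181, 174, 181 and 205 TPM in cortex and 204, 203, 188 and 201 TPM in cerebellum and did not pass (log2 fold change -0.05 ± 0.07, adjusted p = 0.55). The 3 stalk genes thus had unequal changes within the same libraries. Among the other large-subunit genes the largest falls were those of Rpl31, Rpl41 and Rpl37. Rpl31, beside the exit of the peptide tunnel, went from 11.3 ± 2.03 TPM to 7.06 ± 0.566 TPM (SD, n = 4; log2 fold change -0.83 ± 0.16, adjusted p = 0.00069), with 39.5% of its exon bases shared with another gene and no use of strand in the counting. Rpl41, the shortest ribosomal protein, went from 171 ± 31.6 TPM to 115 ± 3.64 TPM (-0.72, adjusted p = 0.00022, n = 4). Rpl37 went from 270.0 ± 49.4 TPM to 182 ± 7.17 TPM (-0.72, adjusted p = 0.00021, n = 4). Of the highest large-subunit genes, Rpl4 fell (log2 fold change -0.49 ± 0.09, adjusted p = 0.00061), and Rpl8 fell by a smaller step, from 1357 ± 91.4 TPM to 1329 ± 64 TPM (SD, n = 4; log2 fold change -0.18 ± 0.07, adjusted p = 0.046), a call that was lost without library CTX480 (adjusted p = 0.075) and with library totals (adjusted p = 0.51).

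Among the 9 members that were higher in wild-type cerebellum were Rps4y2, Rpl9, Rpl5, Rpl27, Rpl10a, Rps15a, Rpl18 and Rpl7l1. Rpl5, which with Rpl11 binds Mdm2 when ribosome assembly fails, was at 3.30, 4.03, 3.14 and 4.10 TPM in cortex and 5.37, 5.27, 5.68 and 5.28 TPM in cerebellum (log2 fold change 0.41 ± 0.12, adjusted p = 0.0099), while Rpl11 did not pass (log2 fold change -0.11 ± 0.15, adjusted p = 0.54). These are low levels for genes of the ribosome, and 26.7% of the exon bases of Rpl5 are shared with another gene. Rpl10a, known from its use as a tag to purify ribosomes, went from 32.4 ± 0.819 TPM to 43.6 ± 3.94 TPM (SD, n = 4; log2 fold change 0.28 ± 0.09, adjusted p = 0.014). Rps15a (0.26, adjusted p = 0.0043), Rpl18 (0.26, adjusted p = 0.0096) and Rpl9 (0.42, adjusted p = 0.012) had rises of the same order, and Rpl9 lost its call when counts of its processed copies were added (adjusted p = 0.21). Rpl27 (0.30, adjusted p = 0.045) passed narrowly and did not pass with the mouse as a block (adjusted p = 0.071).

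In A391T mice, whose libraries are all different ones, the same comparison gave 23 members lower in cerebellum, 7 higher and 50 that did not pass, of 80 tested, with a median of -0.14 (all 16005 genes tested: 31.3% lower, 31.6% higher, median 0.03). These counts changed with library CBLM445. Without it, 43 of 80 members were lower and 8 higher, with a median of -0.23, while the share of all genes called was 36.1% lower and 36.6% higher. All 23 members lower in the full A391T comparison were among the 45 lower in wild type (51.1% of these), and without library CBLM445 the lists shared 41 (91.1% of the wild-type list and 95.3% of the A391T list). Of the higher members, 4 were shared (44.4% of the wild-type and 57.1% of the A391T list), and no member had opposite calls. The median was -0.09 without library CBLM446, -0.09 without library CBLM462 and -0.07 under the naming of the RPKM table. In TPM, 17 members had every A391T cerebellum library below every A391T cortex library and 12 the reverse (21.2% and 15%, against 26.5% and 35.3% of all genes). Scaling by library totals gave 16 lower and 15 higher in A391T (20% and 18.8%), with the median of all genes at 0.16 and 26.1% of all genes lower and 40.7% higher. Leaving out library CTX445 or library CTX446 left 4 members higher (5%, against 28.3% and 28.2% of all genes).

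Of the members called lower in A391T, the largest falls were in Rpl37, Rps2, Rplp1, Rps21 and Rps15, all of which fell in wild type too. Rplp1 was at 2169.8, 2232, 1979 and 2449 TPM in A391T cortex and at 1282, 1461, 1459 and 1494 TPM in their cerebellum (log2 fold change -0.74 ± 0.08, adjusted p = 1.4e-05). Rps2 was at 87.3, 86, 103 and 94.1 TPM in cortex and 70.1, 51.6, 56.8 and 50.6 TPM in cerebellum (log2 fold change -0.79 ± 0.14, adjusted p = 0.00056), and Rps15 at 1182, 1226, 1135 and 1264 TPM in cortex and 686, 855, 843 and 841 TPM in cerebellum (log2 fold change -0.68 ± 0.07, adjusted p = 9.5e-06). For Rplp1 and Rps15 library CBLM445 was the lowest of the cerebellum, and for Rps2 the highest, and the regions did not overlap in any of the 3. Rpl37 went from 262 ± 12.5 TPM to 158 ± 38.6 TPM (SD, n = 4; -0.84, adjusted p = 0.00046) and Rps21 from 494 ± 25.4 TPM to 332 ± 57.8 TPM (-0.68, adjusted p = 0.00017). Rps6, which fell in wild type, was at 9.84, 10.2, 12.5 and 9.61 TPM in cortex and 12, 4.67, 5.43 and 3.95 TPM in cerebellum and did not pass (log2 fold change -0.75 ± 0.34, adjusted p = 0.077). Without library CBLM445 it did (log2 fold change -1.30 ± 0.15, adjusted p = 9.6e-06).

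Among the members higher in A391T cerebellum were Rps29 (1.06, adjusted p = 0.024), Rps27a, which is made as a fusion with ubiquitin (0.73, adjusted p = 0.021), Rps13 (0.70, adjusted p = 0.042) and Rpl9 (0.49, adjusted p = 0.039). The calls of these 4 genes were lost when single libraries were left out. Over such fits the log2 fold change ran from 0.84 to 1.23 for Rps29 and from 0.44 to 0.85 for Rps27a. It ran from 0.44 to 0.87 for Rps13 and from 0.29 to 0.58 for Rpl9. Rps29 had 181 counts in all 16 libraries. Its adjusted p was 0.054 without library CBLM445 and 0.0505 with the mouse as a block, the adjusted p of Rps13 was 0.074 without that library, that of Rps27a was 0.066 without library CTX446, and that of Rpl9 was 0.11 without library CTX445 and 0.082 with the block.

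The variant itself was compared within each region. In cortex, 0 of 79 members tested passed between A391T and wild type, and 2 had an unadjusted p under 0.05 (all 15815 genes: 1 higher and 1 lower, 0.00632% each, and 4.73% at an unadjusted p under 0.05). With DESeq2, 0 members passed, and over all genes 7 were higher and 7 lower. The fitted changes of members ran from -0.39 to 0.41 with a median of -0.03 and a median standard error of 0.12. Without library CTX480 the median was 0.08, 56 of 79 members were above 0 and 10 had an unadjusted p under 0.05 (7.44% of all genes): the direction of the median changed with that library. Without library CTX479 it was -0.07, with 67 of 79 below 0, and under the naming of the RPKM table, which exchanges the genotype of 4 mice, -0.11, with 66 of 79 below 0 and 0 called. The smallest p was that of Rps25, at 18.1, 19.4, 15.6 and 19 TPM in A391T and 22.8, 19.5, 23.8 and 27.5 TPM in wild-type cortex (log2 fold change -0.39 ± 0.14, adjusted p = 0.998).

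In cerebellum, 0 of 79 members passed with edgeR, 6 had an unadjusted p under 0.05 (7.59%, against 8.55% of all 15668 genes, of which 0 passed) and 1 passed with DESeq2 (over all genes 15 higher and 22 lower, 0.0957% and 0.14%). The count at an unadjusted p under 0.05 moved with single libraries. It was 15 without library CBLM462 (19%, against 11.8% of all genes), 10 without library CBLM445 (11.8% of all genes) or library CBLM446 (8.91%) and 5 without library CBLM461 (7.85%). With a wild-type library left out it was 2 without CBLM447 (8.01% of all genes) or CBLM479 (4.47%), 3 without CBLM448 (6.73%) and 1 without CBLM480 (3.76%). The median of the members was 0.12, with 60 of 79 above 0, and 0.06 without library CBLM445, with 59 of 79 above 0. The member with the smallest p was Rpl24, a late-joining protein of the large subunit, at 40.9, 41.7, 41.8 and 44.7 TPM in A391T and 37.2, 36.2, 38.6 and 38.4 TPM in wild-type cerebellum (log2 fold change 0.22 ± 0.06, adjusted p = 0.53). Its groups did not overlap. This was the gene called by DESeq2 (adjusted p = 0.049), and its sign turned under the naming of the RPKM table (-0.0027). In TPM, 6 members had every A391T cerebellum library above every wild-type one (Rpl4, Rpl14, Rpl22l1, Rpl24, Rps3 and Rpsa, 7.59% of 79, against 3.53% of all genes) and 2 the reverse (Rpl5 and Rps15a, 2.53%, against 4.3%).

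Whether the difference between regions depended on genotype was tested with an interaction term over all 16 libraries. It passed for 0 of 80 members with edgeR and 0 with DESeq2, with 2 at an unadjusted p under 0.05 (4.85% of all 16589 genes, of which 0 passed). The 2 were Rps25 (log2 fold change 0.67 ± 0.30, adjusted p = 0.77) and Rpl22l1 (log2 fold change 0.75 ± 0.35, adjusted p = 0.77). The fitted value of Rps25 ran from 0.33 to 0.81 over the fits that left out 1 library. With 1 library left out, 7 had an unadjusted p under 0.05 without library CBLM462 (8.05% of all genes), 5 without library CBLM446 (6.85%) and 0 without library CTX445 (4.09%), CTX447 (3.87%), CBLM479 (3.61%) or CBLM480 (2.85%), and 0 with the mouse as a block (3.98%). The median interaction of the members was 0.12, with 60 above 0, and -0.01, with 35 above 0, once library CTX480 and library CBLM445 were both left out. Under the naming of the RPKM table it was 0.19, with 69 above 0, 9 at an unadjusted p under 0.05 (9.51% of all genes) and 0 called. The lower count of called members in A391T than in wild type was not shown to be a difference between genotypes.

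For 4 pairs of paralogues both genes were members, and the second gene's share of the pair's TPM was compared. Rps4x is the X-linked gene and Rps4y2 a gene of 1 exon at chr6:148303178-148304120 (plus strand) in mm9. The Rps4y2 share was 29.5, 35.3, 37.3 and 26.9% in wild-type cortex and 54.2, 53.8, 48.8 and 58.6% in their cerebellum, and 41.6, 35, 33.1 and 45% in A391T cortex and 52.9, 54.9, 52.5 and 55.7% in their cerebellum. It was higher in cerebellum in all 8 mice, by 21.6 ± 8.61 percentage points in wild type and 15.3 ± 5.03 percentage points in A391T (SD, n = 4 each). In wild type, Rps4x fell (log2 fold change -0.61 ± 0.11, adjusted p = 0.00061) while Rps4y2 rose (log2 fold change 0.71 ± 0.11, adjusted p = 0.00013). In A391T Rps4x fell as well (log2 fold change -0.54 ± 0.08, adjusted p = 0.00014) and Rps4y2 did not pass (log2 fold change 0.31 ± 0.18, adjusted p = 0.15). Under the naming of the RPKM table Rps4y2 in wild type did not pass either (adjusted p = 0.055). The unique windows were 8.89% for Rps4x and 84.3% for Rps4y2, so the share is one of countable reads.

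The share of Rpl7l1, a paralogue known from the assembly of the large subunit, was 35, 33.7, 34.3 and 30.5% in wild-type cortex and 37.2, 36.5, 36.4 and 34.8% in wild-type cerebellum. It was higher in cerebellum in 4 of 4 wild-type mice (2.86 ± 1.02 percentage points) and 4 of 4 A391T mice (3.82 ± 2.10 percentage points). Rpl7l1 rose in both genotypes (log2 fold change 0.20 ± 0.06, adjusted p = 0.011 in wild type; log2 fold change 0.37 ± 0.08, adjusted p = 0.0019 in A391T), while Rpl7 passed in neither (0.02 and 0.12). The share of Rpl22l1, whose level is known to be held down by Rpl22, was 52.7, 50.4, 51.6 and 57.4% in wild-type cortex, 50.5, 50, 51.2 and 47.7% in wild-type cerebellum, 51.8, 48.5, 52.5 and 52.3% in A391T cortex and 68.7, 50.5, 53.1 and 52.3% in A391T cerebellum. Library CBLM445 stood apart, with Rpl22l1 at 315 TPM against 131 to 150.4 in the other 3 and Rpl22 at 144 against 119.9 to 135. Rpl3l, the form of Rpl3 known from striated muscle, made up 0.436 to 1.25% of its pair in the 16 libraries, with 150 counts in all.

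**Figure D5:**
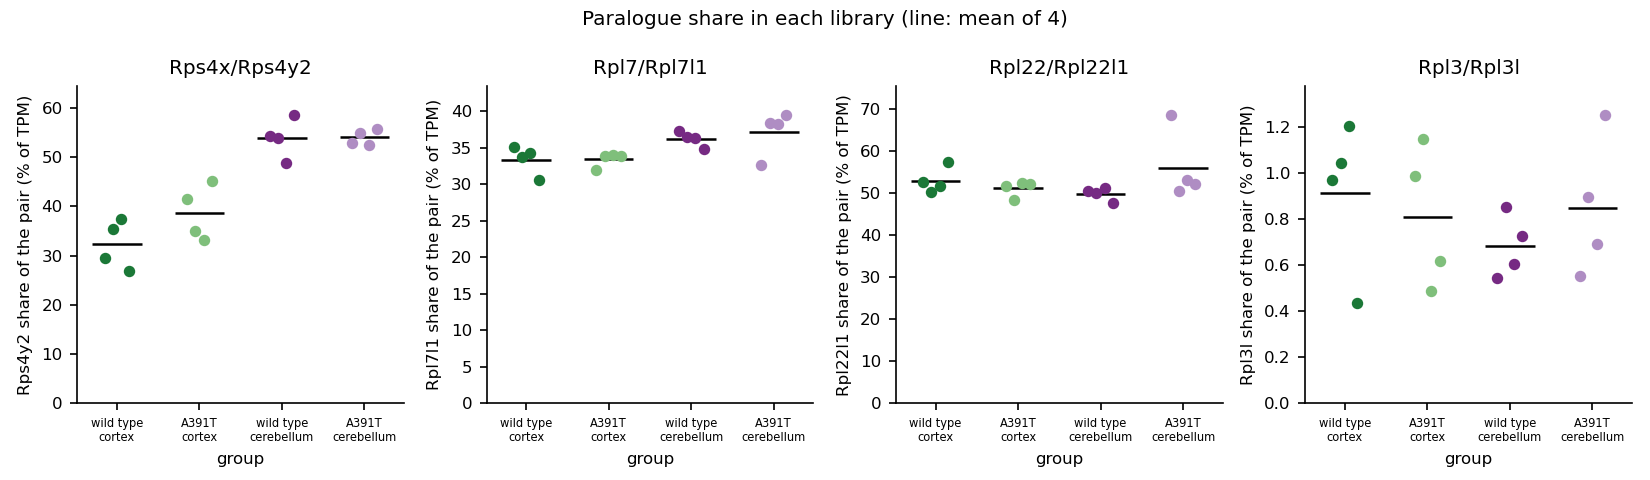
Share of the second gene in the summed TPM of each paralogue pair, in %, for each of the 16 libraries by group, with the mean of 4 as a line. The Rps4y2 share is higher in every cerebellum library than in every cortex library (45% is the highest cortex and 48.8% the lowest cerebellum value), and the Rpl22l1 share has 1 high library, CBLM445.

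Also measured were 2 ribosome components whose symbols fall outside the rule. Gnb2l1, the Rack1 scaffold on the small subunit, was at 112 ± 12.2 TPM in wild-type cortex and 114 ± 4.86 TPM in wild-type cerebellum (SD, n = 4; log2 fold change -0.12 ± 0.08, adjusted p = 0.22). Fau, made as a fusion with a ubiquitin-like protein, was at 4.13 ± 1.27 TPM and 5.20 ± 2.17 TPM (SD, n = 4; adjusted p = 0.63). Neither passed between the regions in wild type.

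Other genes whose mRNAs carry a TOP motif, mainly elongation and initiation factors, were set beside the members. The counts of these and the following lists stand against 33.1% lower and 34.7% higher of all genes in wild type, and 31.3% and 31.6% in A391T. Of 19 tested, 9 were lower and 2 higher in wild-type cerebellum (median -0.18), and 5 lower and 1 higher in A391T (median -0.07). Without library CTX480 the wild-type counts were 8 and 2 (median -0.09), and without library CBLM445 those of A391T were 8 and 4 (median -0.10). Eef1a1, which brings aminoacyl-tRNA to the ribosome, fell in wild type (log2 fold change -0.65 ± 0.07, adjusted p = 5.8e-06) and so did Nap1l1, a histone chaperone (-1.15 ± 0.07, adjusted p = 8.8e-08). Eef1d, of the exchange factor for Eef1a1, rose (0.35 ± 0.07, adjusted p = 0.0014). Genes of ribosome biogenesis had 11 lower and 13 higher of 41 in wild type (median 0.05) and 8 and 10 in A391T (median 0.04), or 11 and 12 without library CTX480 (median 0.05) and 11 and 11 without library CBLM445 (median 0.04). Nhp2, of the snoRNA particles that guide pseudouridylation, fell (-1.0 ± 0.09, adjusted p = 1.2e-06), and Emg1, which methylates the RNA of the small subunit, rose (0.82 ± 0.09, adjusted p = 1.2e-05).

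Of 21 genes of mTOR signalling, TOP mRNA binding and Myc, 5 were lower and 9 higher in wild-type cerebellum (median 0.15), and 5 and 8 in A391T (median 0.05). Without library CTX480 the wild-type counts were 6 and 10 (median 0.07), and without library CBLM445 those of A391T were 7 and 9 (median 0.10). The largest falls were in Eif4ebp1, a cap-binding inhibitor that mTOR phosphorylates (-1.37 ± 0.17, adjusted p = 2.4e-05), and Deptor, an inhibitor in the mTOR complexes (-1.39 ± 0.07, adjusted p = 1.4e-08). The transcription factor gene Max (1.07 ± 0.07, adjusted p = 1.2e-07) and Rictor, of mTOR complex 2, (0.87 ± 0.12, adjusted p = 6.3e-05) rose most. In ribosome quality control, 1 of 9 genes was lower and 3 higher in wild type (median 0.05), with 0 and 3 in A391T (median 0.13). These counts were the same without library CTX480 and without library CBLM445, with medians of 0.02 and 0.09. Gtpbp1 (0.69 ± 0.09, adjusted p = 6.1e-05) and Gtpbp2 (0.47 ± 0.08, adjusted p = 0.00023), relatives of translation factors that act on stalled ribosomes, rose in wild type. The genes of the mitochondrial ribosome gave 15 lower and 12 higher of 75 in wild type (median -0.02) and 3 and 20 in A391T (median 0.16). Without library CTX480 the wild-type counts were 11 lower and 20 higher (median 0.03, the opposite sign), and without library CBLM445 those of A391T were 8 and 28 (median 0.09). Their summed level was 4196 to 5069 TPM in cortex and 4731 to 5426 TPM in cerebellum. In the genotype comparisons and the interaction no gene of these lists passed with edgeR.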

How the data were processed

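Per the labels and the submitters' processing notes, the authors aligned polyA-selected, directional libraries to mm9 with STAR and counted reads per gene with HTSeq, without strand as the deposited files are named, so overlapping and antisense genes cannot be told apart. The deposited counts are raw; 5 rows a library for unassigned reads were left out. From the deposited table of RPKM values only gene names and lengths (unit: other) were used, after its columns were compared with the counts. TPM were computed from counts and lengths.

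All genes were fitted with the quasi-likelihood test of edgeR 4.0.16 (R 4.3.3, limma 3.58.1) after filterByExpr and TMM, with Benjamini-Hochberg adjustment and calls at an adjusted p under 0.05; ± after a fold change is its standard error. Alternatives were DESeq2 1.42.0, RLE size factors, TMM factors from non-members, library totals, no or another filter, all 16 libraries in 1 model, the mouse as a block, 48 fits that left out 1 library, processed copies added and the naming of the RPKM table; members with at least 50% unique windows and fits without the 2 libraries that stood apart were added after seeing the data. The fits were tested on simulated data, in which a far smaller share of genes was changed than was called between regions. For the region comparison in wild type, 50 of 67 genes changed 1.5-fold were called. So were 58 of 67 changed 2-fold and 66 of 66 changed 4-fold, with 16 false calls in 16040 genes. For the genotype comparison in cortex the calls were 49 of 67, 57 of 67 and 66 of 66, with 12 false calls in 15815 genes. Python 3.11.15, pandas 2.3.3 and numpy 2.4.6 were used for the rest.

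The labels give both regions of each mouse. Over all genes, libraries of a mouse did not deviate together: the correlations of their deviations from group means were -0.09 to 0.12 in wild type and -0.10 to 0.02 in A391T. Over the members these correlations were -0.26 to -0.09 in wild type and -0.13 to 0.11 in A391T. Between different mice they were -0.18 to 0.28 and -0.26 to 0.30 over the members. Named with values were the stalk genes and Rpsa, paralogue pairs, the 5 highest and lowest members, those nearest the count minimum, the called members with the largest changes (10 a direction in wild type, 5 elsewhere) and those with the smallest p. Members named for library CBLM445, for their start or for groups that did not overlap between genotypes, and Rpl11, were named after their values were seen. Some genes of the set are counted but not reported by name here. The members and gene lists were chosen with earlier results of these data known.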

Additional observations from a re-analysis of the deposited data

Results flagged for a closer look

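In 21 of 160 sets of 4 libraries, the highest or lowest lay far from the other 3: its gap to the nearest was a larger share of the whole range than Dixon's critical value allows. Chance alone gives about 1 in 20 such sets, but the sets share the same libraries and are not independent. Library CBLM445 (A391T cerebellum) accounted for 13 of them. In that library the level was low, in TPM, for Rplp0 (106 against 202 to 204), Rplp1 (1282 against 1459 to 1494), Rplp2 (64 against 103 to 107), Rpl7l1 (53.1 against 69.7 to 72.2), Rpl18 (20.2 against 29 to 29.9), Rps15 (686 against 841 to 855) and Rps15a (33.2 against 37.9 to 38.1), where the range is that of the other 3 libraries. It was high for Rpl3 (213 against 80.7 to 100.3), Rpl4 (1075 against 852 to 888), Rpl22l1 (315 against 131 to 150.4), Rpl31 (18.5 against 6.82 to 8.42), Rpl41 (246 against 103 to 112) and Rps27a (12.9 against 7.06 to 8.03).

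In A391T cortex, Rpl22l1 was low in CTX446 (115 against 136 to 137 TPM), Rpl7 was high (100.3 against 93.1 to 94 TPM) and Rps21 low (456 against 505 to 509 TPM) in CTX445, and the summed level of all members was high in CTX462 (13157 against 12318 to 12428 TPM). In wild-type cerebellum, Rpl22l1 (107 against 127 to 130.3 TPM) and Rps27a (6.32 against 8.39 to 8.73 TPM) were low in CBLM480 and Rps2 was high in CBLM448 (52.9 against 48 to 48.8 TPM). In wild-type cortex, Rps29 was high in CTX480 (2.66 against 1.43 to 1.48 TPM).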

How the results depend on the processing

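Of 274 counts and values recomputed under alternatives, 259 stayed within the limits set (1.5 times a count, 1 SD of a value), and of the recomputed tests of named genes 575 kept direction and side of the threshold, 34 lost the call, 1 gained one and 3 turned sign. With library totals, 25 members were lower in wild-type cerebellum and 15 higher in A391T cerebellum. Among members with at least 50% unique windows, by construction fewer, 17 were lower and 3 higher in wild type and 8 lower and 1 higher in A391T. Under the naming of the RPKM table and without both libraries that stood apart, 43 members were lower and 11 higher in A391T. Leaving out 1 library at a time gave 19 to 43 lower and 4 to 8 higher members in A391T, and 32 to 45 and 8 to 11 in wild type. With the mouse as a block, 37 were lower and 8 higher in wild type and 24 and 5 in A391T. Between genotypes the mouse and the genotype cannot be told apart, so no block was used.

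DESeq2 called 1 member higher in A391T cerebellum, Rpl24, at 0.22. Under the naming of the RPKM table Rpl24 was at -0.0027 (without both libraries -0.067) and Rps25 in cortex, without both libraries, at 0.046, each on the log2 scale and none called. The cerebellum to cortex ratio of the summed members in A391T was 0.943 by share of counts and 0.934 without the 5 highest members, and 0.841 to 0.875 with 1 mouse left out. The Rpl7l1 share in wild type was 4.09 percentage points higher in cerebellum with those names, and 2.37 to 3.10 with 1 mouse left out. The cause of these changes was not tested. Levels of members with few unique windows and few counts, such as Rps29, Rps23 and Rps16, limit what the libraries can show.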
